A study of Rattus norvegicus with 6 samples.

Results

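Proteasome genes were followed in the L5 dorsal root ganglion (DRG) of the rat. The members were all genes whose single symbol in the array annotation began with Psma, Psmb, Psmc, Psmd, Psme or Psmf and a digit, which gave 34 of the 13378 genes measured (366 of 226599 probe sets). Of these 34 genes, 33 belong to the proteasome, and Psmc3ip, a factor of meiotic recombination, matched by name alone. Psma3, Psma8, Psmb10, Psmc6, Psmd5, Psmd7, Psmd8, Psmd10, Psmd13, Psmd14 and the inhibitor Psmf1 had no value under this rule and were not analysed here. The SNT group held L5 DRG of male Wistar rats whose L5 spinal nerve had been transected 7 days earlier, a model of neuropathic pain in which the axons of the ganglion's neurones are cut. The naive group held L5 DRG of male Wistar rats without surgery, so the effects of transection and of surgery itself cannot be told apart. Each group had 3 samples, every one of them pooled from 4 animals and hybridised to 1 exon array, and p-values therefore measure the spread between pools.

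The proteasome is the barrel-shaped protease that degrades proteins tagged with ubiquitin. Its core particle is built from outer rings of alpha subunits and inner rings of beta subunits, of which PSMB5, PSMB6 and PSMB7 cut peptide bonds. A regulatory particle of ATPase (Psmc) and non-ATPase (Psmd) subunits binds the ubiquitin tag, unfolds the substrate and feeds it into the core, and core and regulatory particle together form the 26S proteasome. Under interferon gamma, PSMB8, PSMB9 and PSMB10 replace the constitutive catalytic subunits to form the immunoproteasome, which is abundant in immune cells and shapes the peptides loaded on MHC class I molecules. The activator PA28 (PSME1 and PSME2), induced by the same cytokine, opens the core from its ends.

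The SNT arrays varied more than the naive arrays, and SNT 1 stood apart from the other SNT arrays. Pearson's r over all probe sets was 0.958 to 0.969 among SNT arrays and 0.984 to 0.986 among naive arrays, and SNT 1 lay nearer to the naive arrays (r 0.955 to 0.960) than SNT 2 and SNT 3 did (0.938 to 0.947). The neurofilament gene Nefl, a marker of the neurones of the ganglion, had log2 values of 11.80 to 12.52 on SNT arrays and 13.03 to 13.07 on naive arrays, on a scale that reached 14.35. Values that rest on SNT 1 are given below with and without it.

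The proteasome genes that passed the test were mainly lower in SNT than in naive ganglia, and the 2 that were higher encode the immunoproteasome subunit PSMB9 and the PA28 subunit PSME1. Of the 34 genes, 16 were lower and 2 were higher at a limma adjusted p under 0.1, and 16 were not called. Over all 13378 genes, 23.3% were called lower, 12.9% higher and 36.3% in either direction. The SNT and naive values did not overlap for 23 members that were lower and 2 that were higher, against 28.9% and 16.8% of all genes. These shares include genes of low signal and were not matched for level. The mean levels of the constitutive subunits lay between percentile 69.3 (Psmc5) and 99.3 (Psmb5) of all genes. The part of level in the counts was not tested. The median log2 change (SNT over naive) was -0.24 over the members and -0.017 over all genes. In tissue RNA of this kind, fewer cells of a type and less RNA per cell cannot be told apart.

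**Figure D1:**
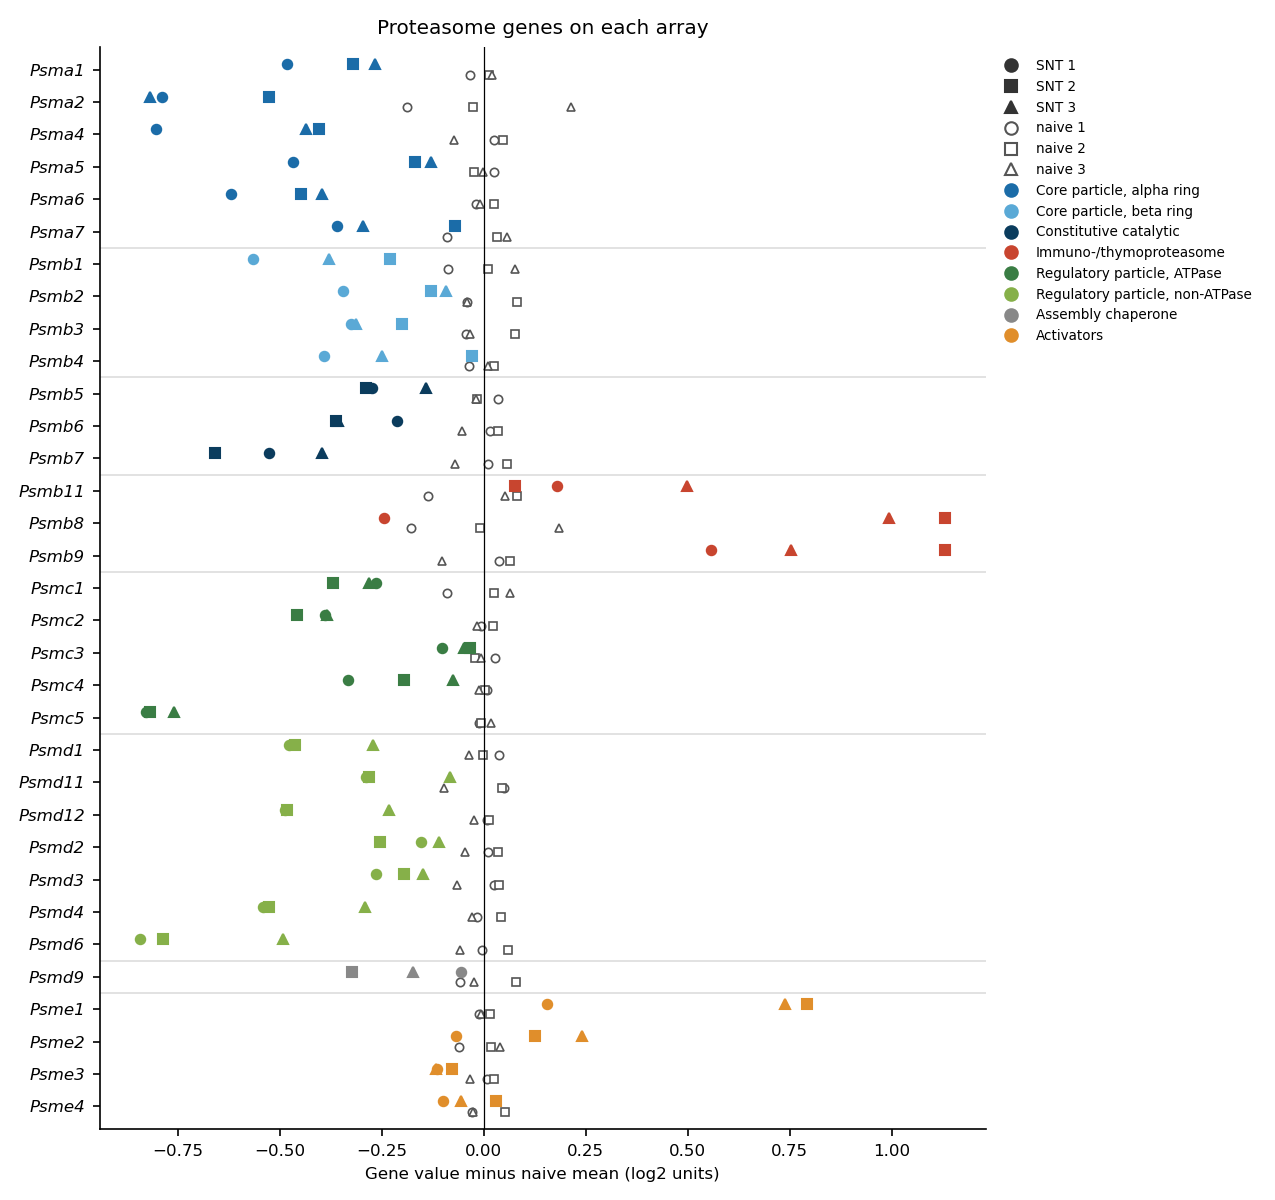
Gene values on each array minus the mean of the naive arrays (log2 units, x axis) for the 33 proteasome genes (y axis), with SNT arrays as filled symbols above naive arrays as open symbols and colours for the role of the subunit. All 3 SNT values of Psmc5 lay between 7.73 and 7.80 against 8.55 to 8.58 on the naive arrays, while Psmb8 on SNT 1 (6.78) lay below the naive values and on SNT 2 and SNT 3 above them.

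Genes lower in SNT were found in every part of the constitutive 26S particle. Of its 25 measured subunit genes, 16 were lower, 0 were higher and 9 were not called, against 23.3% of all genes called lower. In 22 of the 25 all SNT values lay below all naive values, against 28.9% of all genes. All 25 log2 changes were negative in the deposited scaling, with a median of -0.31, whereas 47.8% of all genes had a change above 0. Only Psmc3 changed sign under another scaling, to 0.016 after cyclic loess and 0.043 after centring each array on its median. The median deviation of these subunits from the naive mean was -0.39, -0.32 and -0.28 on SNT arrays 1, 2 and 3, so no single array carried it. Without SNT 1, 17 of the 25 were called lower, and without naive 2, 10 were.

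The alpha subunits form the outer rings of the core and gate its channel. Of the 6 measured, 4 were lower, with a median log2 change of -0.42. Psma2 had values of 8.32, 8.59 and 8.29 on SNT arrays and 8.93, 9.09 and 9.33 on naive arrays, a log2 change of -0.71 ± 0.14 (limma SE, 3 against 3 arrays, adjusted p = 0.00899). All 3 SNT pools lay below the lowest naive pool. Psma4 had 8.33, 8.73 and 8.69 in SNT and 9.15, 9.18 and 9.06 in naive ganglia (-0.55 ± 0.13, limma adjusted p = 0.0178). For Psma6 the values were 9.48, 9.65 and 9.71 in SNT and 10.08, 10.13 and 10.09 in naive ganglia (-0.49 ± 0.09, limma adjusted p = 0.00934). In both genes the lowest value was that of SNT 1, and the groups did not overlap. Psma1 was lower as well (-0.36), while Psma5 (-0.25) and Psma7 (-0.24) were not called.

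The beta subunits without catalytic activity complete the inner rings. Psmb1 (-0.39) and Psmb3 (-0.28) were lower, and Psmb2 (-0.19) and Psmb4 (-0.22) were not called, Psmb4 with overlapping groups.

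All 3 constitutive catalytic subunits were lower. Psmb5, which encodes the chymotrypsin-like site, had 11.91, 11.89 and 12.04 in SNT and 12.21, 12.16 and 12.16 in naive ganglia, a log2 change of -0.23 ± 0.09 (limma adjusted p = 0.0888). This small change kept its call in 2 of the 6 fits that left out 1 array and lost it after cyclic loess and after median centring. It also lost it with the most variable probe set, with probe sets above background only, with the replicate number as a block and at a false discovery rate of 0.05. Psmb6, which encodes the caspase-like site, had 11.43, 11.28 and 11.29 in SNT and 11.66, 11.68 and 11.59 in naive ganglia (-0.31 ± 0.09, limma adjusted p = 0.0384). Psmb7, which encodes the trypsin-like site, had 10.70, 10.57 and 10.83 in SNT and 11.24, 11.28 and 11.16 in naive ganglia (-0.53 ± 0.10, limma adjusted p = 0.00901). In these 3 genes every SNT value lay below every naive value, and the call of Psmb7 was kept in each fit that left out 1 array. The call of Psmb6 was lost without naive 1, without naive 2, after centring, with the replicate number as a block and with the most variable probe set.

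The ATPase subunits unfold the substrate at the base of the regulatory particle, and 3 of the 5 measured were lower. Psmc5 showed the largest fall of the members, with 7.73, 7.74 and 7.80 in SNT and 8.55, 8.55 and 8.58 in naive ganglia (-0.80 ± 0.08, limma adjusted p = 0.00176), a value 1.74-fold lower in SNT. The gap between the groups was many times the spread within either. Psmc2 (-0.41) and Psmc1 (-0.30) were also lower, while Psmc4 (-0.20) and Psmc3 (-0.06) were not called.

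The non-ATPase subunits form the lid and the scaffold of the base and hold ubiquitin receptors, and 4 of the 7 measured were lower, with a median of -0.40. Psmd6, a lid subunit, had 10.07, 10.13 and 10.42 in SNT and 10.91, 10.97 and 10.86 in naive ganglia (-0.71 ± 0.12, limma adjusted p = 0.00552). Psmd4, which encodes a ubiquitin receptor, had 8.17, 8.18 and 8.42 in SNT and 8.69, 8.75 and 8.68 in naive ganglia (-0.45 ± 0.10, limma adjusted p = 0.0151). SNT 3 held the highest SNT value of both genes and still lay below the naive range. Psmd1, the large base scaffold (-0.40), and Psmd12, a lid subunit (-0.40), were lower too. Both, like Psma4, Psma6 and Psmd4, lost the call where the most variable probe set stood for the gene, although the log2 changes were then larger in size (-1.05 for Psmd1, -0.83 for Psmd12, -0.82 for Psma4, -0.84 for Psma6 and -0.92 for Psmd4). Psmd2 (-0.17), Psmd3 (-0.20) and Psmd11 (-0.22) were not called, nor was Psmd9 (-0.18), an assembly chaperone of the base.

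**Figure D2:**
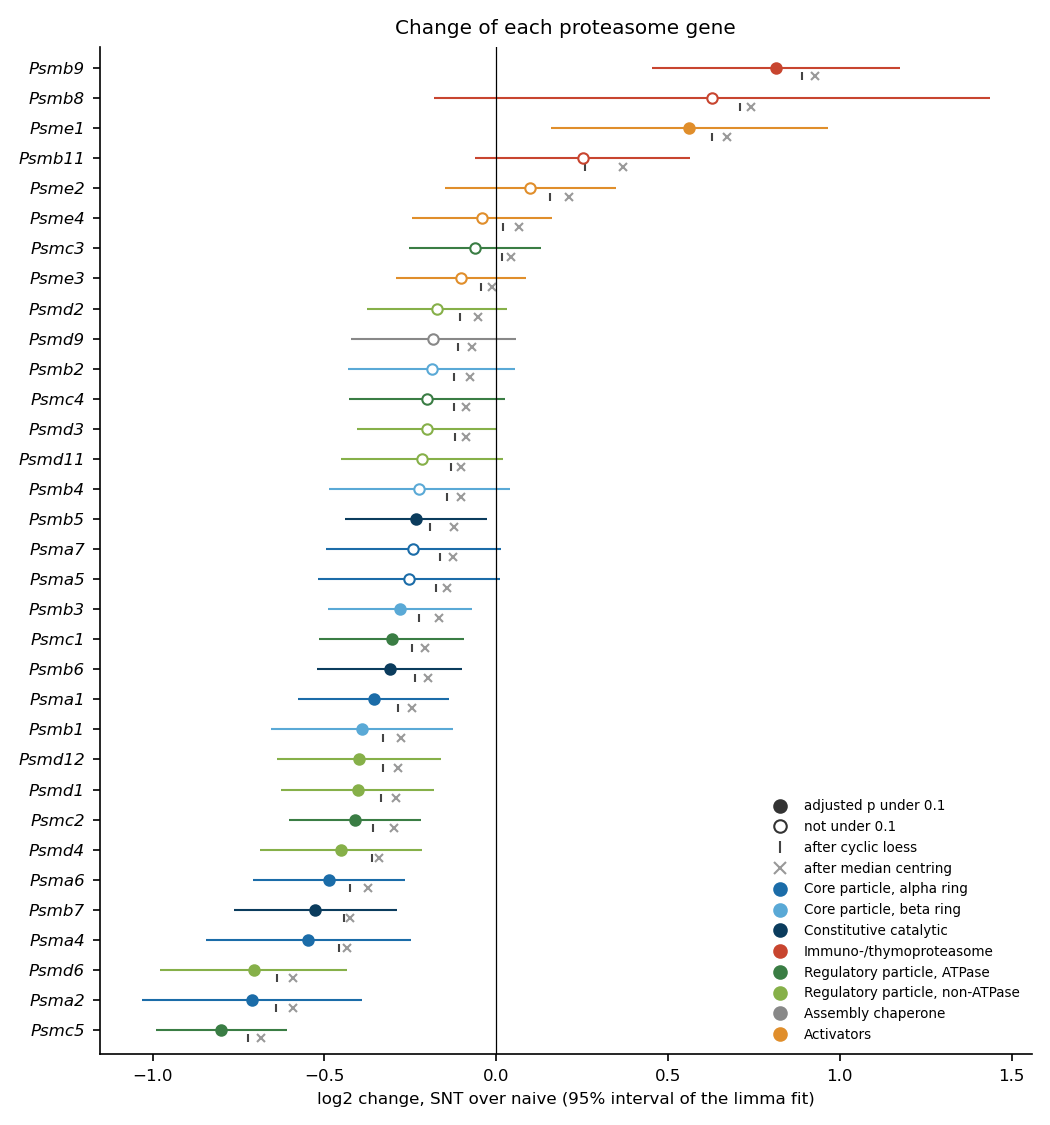
Log2 change of each proteasome gene (SNT over naive, x axis) with the 95% interval of the limma fit, ordered by size and coloured by role, with filled points for an adjusted p under 0.1 and small marks for the value after cyclic loess or median centring. Psmb9 (0.81) and Psme1 (0.56) are the filled points right of 0, and the 16 filled points left of 0 run from -0.23 to -0.80.

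The immunoproteasome subunits did not share the fall. Psmb9, the counterpart of Psmb6, had 8.66, 9.24 and 8.86 in SNT and 8.14, 8.17 and 8.002 in naive ganglia, a log2 change of 0.81 ± 0.15 (limma adjusted p = 0.00857) and a value 1.76-fold higher in SNT. All 3 SNT pools exceeded the naive pools, and the call was kept in each fit that left out 1 array, but not when the most variable probe set stood for the gene (adjusted p = 0.209). Psmb8, the counterpart of Psmb5, had 6.78, 8.15 and 8.02 in SNT and 6.84, 7.01 and 7.21 in naive ganglia (0.63 ± 0.34, limma adjusted p = 0.224). SNT 2 and SNT 3 lay above the naive arrays and SNT 1 below them, so that the groups overlapped. Without SNT 1 the log2 change of Psmb8 was 1.09 (limma adjusted p = 0.00601), and over all alternatives the adjusted p ran from 0.00601 to 0.515. The thymus-specific Psmb11 had a mean of 4.51 in SNT and 4.26 in naive ganglia, both under the background level of 5.11 set at the percentile 25 of all probe set means, and was not called.

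Each immunosubunit was then set against the constitutive subunit whose place it takes, as the difference of the 2 gene values on each array. The difference Psmb9 minus Psmb6, relative to the naive mean, was 0.77, 1.49 and 1.11 on SNT arrays and 0.02, 0.03 and -0.05 on naive arrays. The changes of the 2 genes thus differed by 1.12 log2 units (95% interval 0.54 to 1.71), with an exact two-sided permutation p of 0.1, the smallest that 3 against 3 arrays allow (adjusted over 2 pairs, 0.2). All SNT arrays lay above all naive arrays. The difference Psmb8 minus Psmb5 was 0.03, 1.42 and 1.14 on SNT arrays and -0.21, 0.01 and 0.20 on naive arrays, and the changes differed by 0.86 (95% interval -0.36 to 2.08, exact two-sided permutation p = 0.2, adjusted 0.2). Here SNT 1 fell inside the naive range. Both 95% intervals came from a t distribution with the variance pooled over the groups, although the differences spread more on SNT arrays than on naive arrays. Whether equal variance holds was not tested. The design could reach no permutation p under 0.1 in either pair.

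Of the PA28 genes, Psme1 was called higher and Psme2 was not. Psme1 had 8.82, 9.45 and 9.40 in SNT and 8.65, 8.67 and 8.65 in naive ganglia (0.56 ± 0.17, limma adjusted p = 0.0468). The groups did not overlap, but SNT 1 lay much closer to the naive arrays than SNT 2 and SNT 3 did. The call was lost in every fit that left out 1 array except that without SNT 1, with log2 changes of 0.37 without SNT 2, 0.40 without SNT 3, and 0.58, 0.59 and 0.53 without naive 1, 2 and 3, against 0.74 without SNT 1. Psme2, its partner in the same ring, had 10.54, 10.73 and 10.85 in SNT and 10.55, 10.63 and 10.65 in naive ganglia (0.10 ± 0.11, limma adjusted p = 0.539), and the groups overlapped. The difference between the changes of Psme1 and Psme2 was not tested.

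The remaining activators act mainly in the nucleus. Psme3, the gamma form of PA28, had 9.23, 9.27 and 9.23 in SNT and 9.35, 9.37 and 9.31 in naive ganglia (-0.10 ± 0.08, limma adjusted p = 0.395), but was called lower when its probe sets were averaged (-0.26, adjusted p = 0.0723) and with the most variable one (-1.21, adjusted p = 0.0671). Psme4, which encodes PA200, had 9.41, 9.54 and 9.45 in SNT and 9.48, 9.56 and 9.48 in naive ganglia (-0.04 ± 0.09, limma adjusted p = 0.764), and its sign turned under both other scalings (0.019 and 0.065) and with the mean of the probe sets (0.041). Neither change passed the test on the median polish values.

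**Figure D3:**
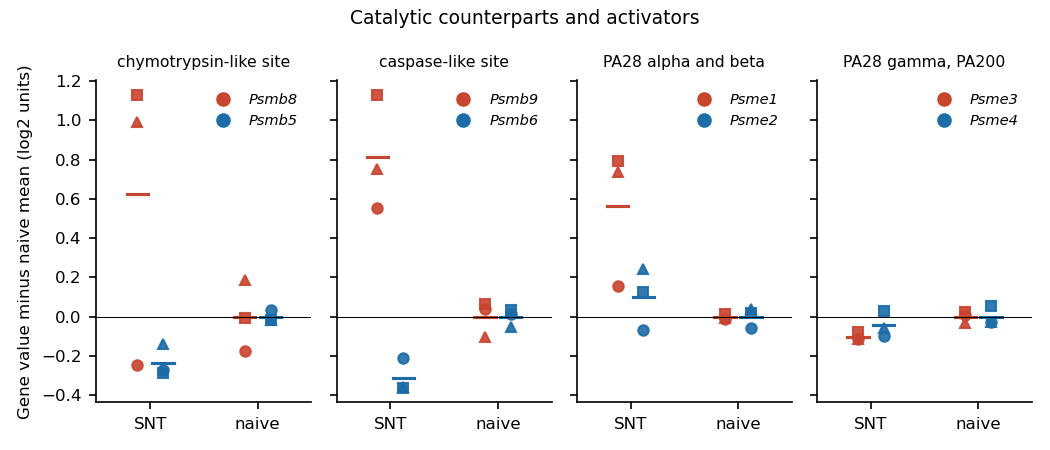
Gene values minus the naive mean (log2 units, y axis) for SNT and naive arrays, with 1 panel for each immunosubunit beside its constitutive counterpart and for the activators, array 1 as circles, 2 as squares and 3 as triangles, and bars for group means. Psmb9 is above 0 on all 3 SNT arrays and Psmb6 below 0, whereas Psmb8 is below 0 on SNT 1 (the circle, -0.24) and above 0 on SNT 2 and SNT 3.

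In the rat genome (GRCr8, RefSeq), Psmb8 and Psmb9 lie on chromosome 20 with 1 gene between them, Tap1, which encodes a subunit of the peptide transporter of MHC class I loading. Psme1 and Psme2 lie on chromosome 15 with 1 gene, Emc9, between them. Promoter windows of 300 bases, from 250 before to 50 after the annotated start, were given in RefSeq (GRCr8) for 29 of the 33 proteasome genes. Those of Psmb9 and Tap1 point in opposite directions and share 44 bases. The windows of the immunosubunits are printed because these genes departed from the fall of the other subunits, and those of Psmc5 and Psma2 because they showed the largest falls with a window. They stand at chr20:4668750-4669049 (plus strand) for Psmb9, chr20:4656982-4657281 (minus strand) for Psmb8, chr10:91687303-91687602 (plus strand) for Psmc5 and chr17:55260392-55260691 (minus strand) for Psma2. Capitals mark matches, on either strand, to any of the 3 motifs described after them.
Psmb9: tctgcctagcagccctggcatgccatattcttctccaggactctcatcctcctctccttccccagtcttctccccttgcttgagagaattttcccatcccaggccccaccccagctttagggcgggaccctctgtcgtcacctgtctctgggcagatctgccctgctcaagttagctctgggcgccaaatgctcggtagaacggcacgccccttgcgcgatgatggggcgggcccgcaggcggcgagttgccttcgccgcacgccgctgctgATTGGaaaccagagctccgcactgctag
Psmb8: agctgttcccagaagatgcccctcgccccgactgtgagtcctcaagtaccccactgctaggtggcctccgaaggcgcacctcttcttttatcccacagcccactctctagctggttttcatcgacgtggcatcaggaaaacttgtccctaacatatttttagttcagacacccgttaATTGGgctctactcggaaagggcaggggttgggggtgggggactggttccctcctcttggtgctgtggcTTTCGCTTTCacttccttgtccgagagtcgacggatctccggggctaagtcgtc
Psmc5: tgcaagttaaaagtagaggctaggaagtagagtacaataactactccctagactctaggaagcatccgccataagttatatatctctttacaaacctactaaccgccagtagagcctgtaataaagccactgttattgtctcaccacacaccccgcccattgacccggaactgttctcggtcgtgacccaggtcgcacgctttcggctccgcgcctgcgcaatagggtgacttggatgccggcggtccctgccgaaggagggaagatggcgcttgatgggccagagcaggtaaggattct
Psma2: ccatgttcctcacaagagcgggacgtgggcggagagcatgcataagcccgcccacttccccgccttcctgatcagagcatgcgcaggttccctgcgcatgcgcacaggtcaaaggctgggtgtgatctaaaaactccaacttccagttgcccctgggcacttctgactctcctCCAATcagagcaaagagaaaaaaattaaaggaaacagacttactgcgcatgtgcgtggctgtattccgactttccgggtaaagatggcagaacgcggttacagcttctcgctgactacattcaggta

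The motifs searched on both strands were TGACNNNGC (antioxidant response element, bound by NRF factors), GAAA repeated after 2 free bases (interferon-stimulated response element, bound by interferon regulatory factors) and CCAAT (bound by NF-Y). Matches to the first and last motif shared 1 base in the window of Psmb2, and no other matches overlapped. The interferon-stimulated response element matched in 4 of 29 proteasome windows (Psmb8, Psme2, Psma4 and Psmb3), or 13.8%, against 3.77% of all 27457 windows. In Psmb8 the match, TTTCGCTTTC on the printed strand, began 4 bases before the start. The antioxidant response element matched in 7 of 29 (24.1%) against 12.2%, and CCAAT in 15 of 29 (51.7%) against 37.7%. Of the 14 genes with a window that were called lower, 3 held the antioxidant response element and 8 held CCAAT. Psma4 and Psmb3, which held the interferon-stimulated response element, were also called lower. The windows of Psmb9 and Psme1, the 2 members called higher, held no full match to it. That of Psme1 ended in TTTCGCTT, letters that also begin the match of Psmb8. The edge of the window cut them, so whether the Psme1 promoter holds the element was not tested. A match is a description of these letters and not a bound site.

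Single probe sets, which on this array lie within 1 exon or part of it, mostly changed in the direction of their gene. Most of them, 301 of 366, were not called on their own. Of the 366 probe sets of the members, 55 were lower and 10 were higher at a limma adjusted p under 0.1, against 10.7% and 5.16% of all probe sets (15.9% in either direction), and 349 lay above the background level. The 10 higher probe sets belonged to Psmb9 (6 of its 8) and Psme1 (4 of its 9). Among the lower genes, 10 of 12 probe sets of Psmc5, 7 of 9 of Psma2, 7 of 9 of Psmd6 and 5 of 9 of Psmb7 were called lower. No probe set of the lower genes Psmb3, Psmb5 and Psmb6 was called, and Psma1, Psmb1, Psmc1, Psmd4 and Psmd12 had 1 each. None of the 8 probe sets of Psmb8 was called, yet all 8 changes were positive, from 0.12 to 0.98.

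The probe sets of a gene changed unequally (diffSplice F test in limma, adjusted p under 0.1) in 8 of the 34 members, close to the 19.5% of all genes tested. The smallest p belonged to Psme3, Psmd11 and Psmb7 (adjusted p = 0.00549, 0.00791 and 0.00903 by that test). In Psme3, a single probe set was called lower, with a mean of 6.69 in SNT and 7.89 in naive ganglia (log2 change -1.21, limma adjusted p = 0.0419), although the gene value changed little. In Psmd11, one probe set had a mean of 4.995 in SNT, under the background level, and 6.68 in naive ganglia (-1.68, limma adjusted p = 0.0565), while the highest change of its 16 probe sets was 0.02. In Psmb7, all 9 probe sets had a negative change, from -0.18 to -1.17, and 5 of them were called. The gene values of these 3 genes thus stood for unequal changes of their probe sets. RefSeq names 7 pseudogenes of Psmb3, 5 of Psma6 and 4 of Psme3 by symbol, and whether their transcripts reached the probes was not tested.

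**Figure D4:**
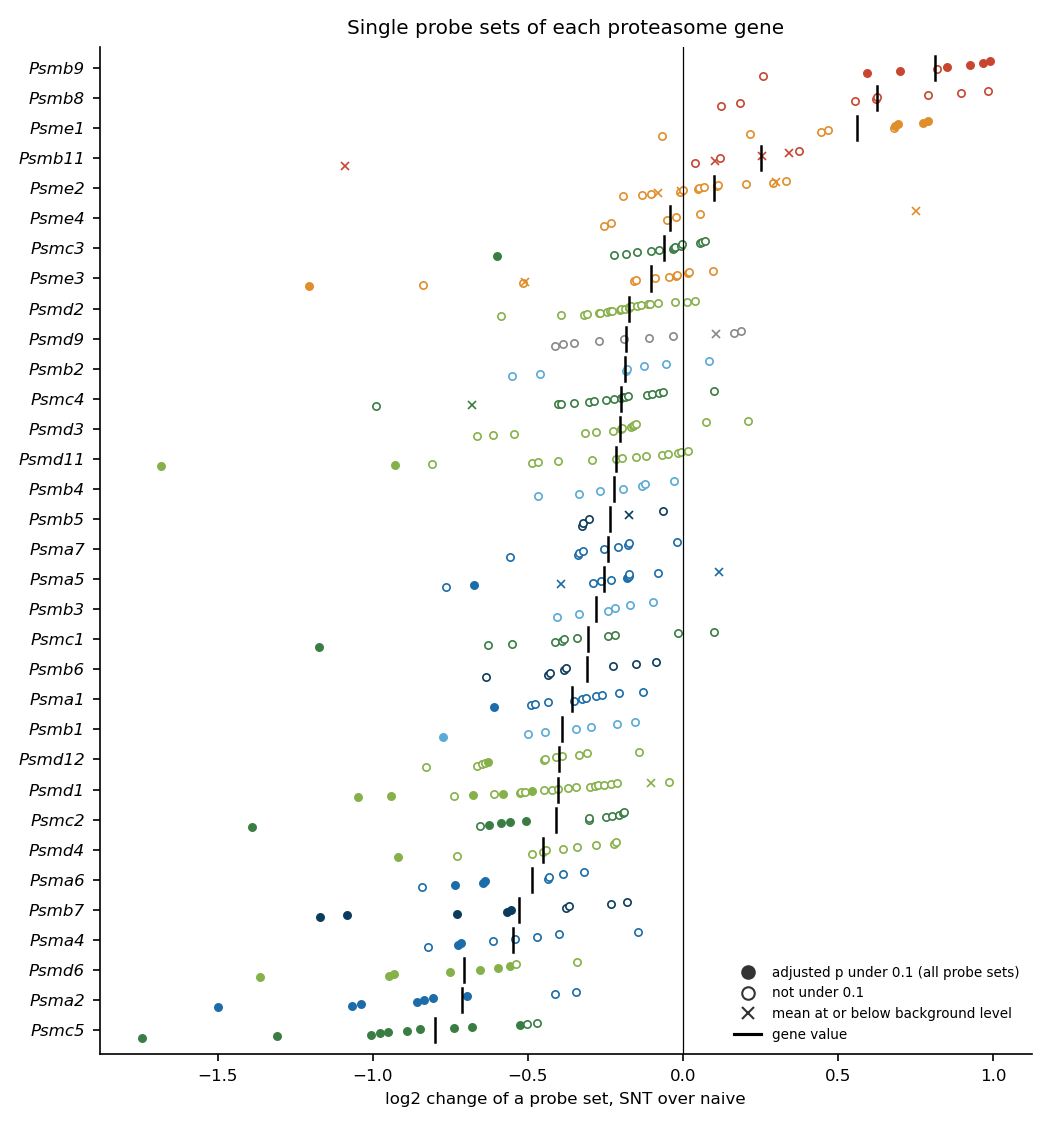
Log2 change (SNT over naive, x axis) of every probe set of each proteasome gene (y axis, ordered by gene value), with circles filled for an adjusted p under 0.1, crosses for a mean at or below the background level and black bars for the gene value. All 8 circles of Psmb9 and of Psmb8 lie right of 0, and single circles of Psme3 (-1.21) and Psmd11 (-1.68) lie far left of their gene values.

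Factors that work with the proteasome were followed through lists of genes. Of 8 assembly and proteasome-bound factors measured, 5 were lower and 0 were higher, with a median log2 change of -0.42. Uchl5 and Usp14, deubiquitinases bound to the regulatory particle, changed by -1.14 ± 0.15 (limma adjusted p = 0.00291) and -0.84 ± 0.09 (limma adjusted p = 0.00200). Uchl5 had 6.77, 7.22 and 7.27 in SNT and 8.31, 8.22 and 8.15 in naive ganglia, and Psmg3, a chaperone of core assembly, changed by -0.47. Both genes showed no overlap between the groups. Of 8 ubiquitin supply and shuttle factors, 3 were lower and 0 were higher (median -0.22), against 23.3% of all genes called lower and 12.9% higher. The groups did not overlap in 6 that were lower and 1 that was higher, against 28.9% and 16.8% of all genes. The 3 called were Ubqln2 (-0.37), Nploc4 (-0.35) and Ubqln1 (-0.31). The ubiquilins carry tagged proteins to the proteasome, and Nploc4 is a cofactor of the segregase VCP.

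Genes of antigen presentation and of interferon gamma signalling were followed in the same way. Of 15 genes of MHC class I peptide loading, 4 were higher, 0 were lower and 11 were not called (median 0.24), against 12.9% of all genes higher and 23.3% lower. Tap1, the neighbour of Psmb8 and Psmb9, had 7.38, 7.65 and 7.94 in SNT and 7.14, 7.20 and 6.97 in naive ganglia (0.56 ± 0.15, limma adjusted p = 0.0329), RT1-CE5, a class I molecule, changed by 0.47 and Tap2, the other transporter subunit, by 0.37. Of 7 genes of the interferon gamma axis, 5 were higher and 1, the kinase gene Jak1 (-0.31), was lower. The largest changes were those of the transcription factor Irf8 (1.79), the kinase Jak2 (0.88) and the receptor subunit Ifngr2 (0.86). Ifng itself had means of 4.02 in SNT and 3.87 in naive ganglia, both under the background level, and was not called.

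The SNT ganglia also differed in markers of cell types. Over all genes, 12.9% were called higher and 23.3% lower. Of 11 macrophage markers measured, all 11 were higher (median log2 change 1.56), and their summed linear level, relative to the naive mean, was 3.12 to 7.20 on SNT arrays and 0.832 to 1.16 on naive arrays. Of 8 T and NK cell markers, 5 were higher, with sums of 2.00 to 3.31 in SNT and 0.929 to 1.11 in naive ganglia. Cd4 had the highest mean level of this list (9.54 in SNT and 8.28 in naive ganglia) and weighed most in the sums. Cd3d (0.28), Nkg7 (0.57) and Prf1 (0.02) were not called. Of 11 sensory neurone markers, 8 were lower (median -0.93), with sums of 0.555 to 0.770 in SNT and 0.965 to 1.02 in naive ganglia. Uchl1 (-0.30), Prph (-0.27) and Tubb3 (-0.009), the other markers of that list, were not called. Among the other lists, 4 of 7 myelinating Schwann cell markers were higher, satellite glia markers were split (3 higher and 4 lower of 9), 1 of 3 B cell markers was lower and 0 of 3 endothelial markers were called. The part of these markers in the changes of the proteasome genes was not tested.

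By array, the macrophage markers had a median deviation from the naive mean of 0.97, 2.11 and 1.66 on SNT arrays 1, 2 and 3, and the neurone markers of -0.53, -1.25 and -1.01. Psmb8 (-0.24, 1.13 and 0.99), Psmb9 (0.56, 1.13 and 0.75) and Psme1 (0.16, 0.79 and 0.74) were each lowest on SNT 1, where both marker lists had moved least. The constitutive 26S subunits had their lowest median on that same array (-0.39), and likewise after cyclic loess (-0.30, -0.26 and -0.26 on SNT 1, 2 and 3), but not after median centring (-0.20, -0.25 and -0.22).

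**Figure D5:**
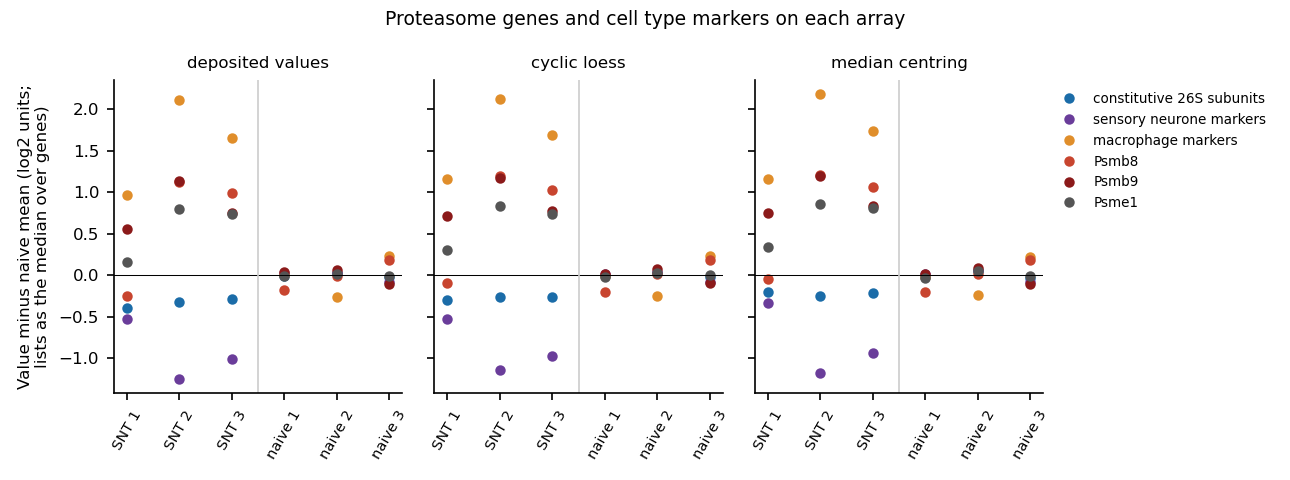
Value on each array minus the naive mean (log2 units, y axis) for single genes and for the median over lists, with SNT arrays left of naive arrays and 1 panel for each scaling. On SNT 1 the macrophage markers (0.97), Psmb9 (0.56), Psme1 (0.16) and Psmb8 (-0.24) lie lower than on SNT 2 and SNT 3, and the constitutive 26S subunits lie below 0 on all SNT arrays in each scaling.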

How the data were processed

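Poly(A) RNA from 6 pools was hybridised to Affymetrix Rat Exon arrays. The authors deposited log2 values per probe set, made with oligo and RMA (background correction, quantile normalisation and summary of probes; versions not given in the sources used here). They ran from 1.84 to 14.35, and 0 columns lay outside the mapped samples. A change is therefore relative to the array as a whole. The array medians over all probe sets were 6.77 to 6.88 on SNT arrays and 6.93 to 6.98 on naive arrays. Detection calls were not used here, and the number of arrays limits the precision.

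Of the probe sets, 164162 carried 1 gene symbol in the platform annotation, 2388 several and 60049 none, and only the first were used. Symbols were updated through RefSeq (GRCr8), with 13365 of 13411 matched. Gene values were made by Tukey median polish (at most 20 iterations). The groups were compared with limma 3.58.1 (R 4.3.3; lmFit, then eBayes), with Benjamini-Hochberg adjustment over all genes and a false discovery rate of 0.1, the threshold of the study's methods. Unequal probe sets were sought with diffSplice in genes with 3 or more probe sets above background, and pairs of subunits were compared with an exact permutation test. The fits were tested on simulated data.

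The members and gene lists were chosen with earlier results of these data known. Values on every array were given for the catalytic subunits and activators and for the 6 other called members with the largest changes, and the 3 called genes with the largest changes were named in each pathway list. Jak1, Ifng and the remaining members were named to account for them. Nfe2l1, Psmb10 and Psmf1 were not analysed here, and the result of 1 motif search is not reported here. Alternatives covered scaling, probe set summary, dim probe sets, naming, variance model, array weights, a replicate block, the false discovery rate and leaving out each array.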

Additional observations from a re-analysis of the deposited data

How the results depend on the processing

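The count of constitutive 26S subunits called lower (16) ranged from 10 to 19 with 1 array left out and was 7 with the most variable probe set per gene, which also gave 9 members lower and 0 higher. Members called lower ranged from 10 to 19 and members called higher from 1 to 3 with 1 array left out, and array weights gave 4 higher. Of the 16 lower members, 10 kept the call in every fit with 1 array left out, and 5 (Psma2, Psmb7, Psmc2, Psmc5 and Psmd6) in every alternative as well. Psma1 and Psmb1 lost the call without any 1 of the naive arrays, and Psmb3 and Psmc1 without naive 2. Psmb3 and Psmc1 also lost it after centring and with the replicate block. Psmb3 lost it as well at a false discovery rate of 0.05 and with the most variable probe set. Members that gained a call were Psma7 and Psmb4 without SNT 2, Psmc4 without SNT 3, Psmd3 without SNT 1, without SNT 3 and with the mean of probe sets, Psmd11 without SNT 3, with the mean of probe sets and with the most variable probe set, Psme3 with both of these summaries, and Psmb8 (higher) without SNT 1 and with array weights. Psmb11 was called higher after centring, with array weights and with its probe sets above background, and lower with its most variable probe set. Of the 2 higher members, Psmb9 alone kept it whichever array was left out.

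Median centring moved the median of all genes to 0.092, by over 0.1 from -0.017, and gave 3074 genes higher and 2397 lower, against 1731 and 3120 in the deposited scaling, with 3 members higher and 12 lower. Cyclic loess gave 2380 genes higher and 2784 lower. The median of the members was -0.12 after centring, -0.17 after loess and -0.70 with the most variable probe set (all genes, -0.28 with 722 higher), and -0.27 to -0.18 with 1 array left out. Over all genes, 760 to 2629 were higher and 1975 to 3235 lower with 1 array left out. The log2 change of Psme4 turned to 0.065 (centring), 0.019 (loess), 0.041 (mean of probe sets) and 0.75 (most variable probe set).

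Member probe sets called lower (55) were 34 after centring, 105 with a trended and robust variance, 21 at a false discovery rate of 0.05 and 8 to 64 with 1 array left out. Those called higher (10) were 4 at 0.05 and 0 to 22 with 1 array left out. The extremes of 22 higher and 8 lower came without SNT 1 and without naive 2. Differences of changes ranged from 0.59 to 1.27 (Psmb8 minus Psmb5) and from 0.94 to 1.32 (Psmb9 minus Psmb6) with 1 array left out. The deviations of same-numbered arrays gave r of -0.07, -0.22 and 0.06, and those of differently numbered arrays r from -0.23 to 0.29. With 3 arrays per group, this check could not decide whether the numbers pair the samples. The replicate block gave 12 members lower and 2 higher, and 26 probe sets lower and 6 higher. Single-gene results were counted only for the catalytic subunits, the activators and the 6 other called members with the largest changes. Under all alternatives, 207 of these results kept direction and call, 25 lost the call, 4 gained it and 4 turned sign. All that turned sign were for Psme4. Outside these genes, Psmc3, Psmb11 and Psmc3ip turned sign in some alternatives. The causes were not tested. Genes near the background level of 5.11, such as Psmb11, had little signal to measure.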

Other observations

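Like the genes of the array as a whole, the proteasome genes varied more between SNT pools than between naive pools. The median SD of a member was 0.13 log2 units in SNT and 0.05 in naive ganglia, and 30 of 33 proteasome genes had the larger SD in SNT. Over all genes the median SDs were 0.18 in SNT and 0.09 in naive ganglia. Psmc3ip, which matched by name only, had 6.14, 6.56 and 6.17 in SNT and 6.43, 6.22 and 6.45 in naive ganglia and was not called (log2 change -0.08, limma adjusted p = 0.722).

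Psma3, an alpha subunit, was named on 11 probe sets that each carried several symbols, so that no value could be given to it alone. Psme3ip1 stood on 8 probe sets under an older symbol and was outside the rule.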
